A study of Mus musculus with 10 samples.

Results

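The EGR and NR4A families of activity-induced transcription factors were measured in prefrontal cortex as 7 genes, Egr1, Egr2, Egr3 and Egr4 and Nr4a1, Nr4a2 and Nr4a3. They were chosen by gene family, with earlier results of these libraries known. All 7 were found among the 15914 protein-coding genes of the deposited table. RNA of the bulk tissue was sequenced from wild-type C57BL/6J mice in 10 libraries. In 5 libraries, called hypoxia + PBM here, the mice had hypobaric hypoxia (low oxygen at reduced air pressure) and then photobiomodulation, a treatment with light that the library names call laser. In the other 5, called hypoxia, the mice had hypobaric hypoxia alone. All 10 libraries therefore carry hypoxia, and what hypoxia itself changed was not analysed here. The labels do not spell out age, the timing or dose of the light, how long after it the tissue was taken, or whether each library came from its own animal. All p-values therefore describe the spread among these 10 libraries, part of which may be technical.

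EGR proteins are zinc-finger transcription factors and NR4A proteins are orphan nuclear receptors that act without a known hormone ligand. Neurons transcribe both families within minutes of calcium entry or growth factor signalling, through kinases that act on SRF, CREB and MEF2 proteins already bound to their promoters. They are therefore called immediate early genes, and in cortex their RNA is widely read as a trace of recent synaptic activity. EGR proteins switch on Nab2, one of the NAB proteins that act as their co-repressors. NR4A proteins act alone on DNA or, for Nr4a1 and Nr4a2, in pairs with retinoid X receptors.

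The deposited values are FPKM, which scale a gene's fragments to its length and to the size of the library, and levels of different genes can be compared on this scale. Between 31096252 and 35957148 reads of listed genes lay behind each hypoxia + PBM library and between 29283937 and 35140072 behind each hypoxia library. All 10 cortical excitatory neuron markers looked at were present, which does not tell prefrontal cortex from other cortex. Slc17a7, the vesicular glutamate transporter of cortical neurons, was at 507 ± 14.4 FPKM in hypoxia + PBM and 493 ± 21.6 FPKM in hypoxia (SD, n = 5 each). The 10 markers went either way, with 7 positive and 3 negative changes by the limma-trend test described below. None was called, where 2.85% of all tested genes were, and 4 had an unadjusted p under 0.05, where 19.6% did. Markers of the medium spiny neurons of the striatum, a neighbouring tissue, were present too. Of these, 15 of 17 were called lower in hypoxia + PBM, where 1.70% of all tested genes were. The 17 genes summed to 250.1 to 424 FPKM in hypoxia + PBM and to 463 to 816 FPKM in hypoxia. The mean of these markers differed by -0.84 on the log2(FPKM + 1) scale, hypoxia + PBM minus hypoxia. This list was chosen with the lower striatal markers already known from these libraries, so the difference is given as a description. In bulk tissue, fewer cells of a type and less RNA per cell cannot be told apart.

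Egr1 was lower in hypoxia + PBM and was the member that passed the test. Nr4a1 lay the other way, with a higher mean in hypoxia + PBM, while Egr4, Nr4a2 and Nr4a3 had lower means there and Egr2 and Egr3 differed least relative to their spread. By limma-trend on log2(FPKM + 1), fitted over 14406 genes with at least 0.1 FPKM in at least 5 libraries, with p adjusted after Benjamini and Hochberg and a threshold of 0.05, 1 of the 7 members was called lower, where 1.70% of all tested genes were. None of the 7 was called higher, where 1.15% of all tested genes were, and at an unadjusted p under 0.05 it was 1 member, Nr4a1. In either direction 1 of 7 was called, where 2.85% of all genes were, and 5 members had an unadjusted p under 0.05, against 19.6% of all tested genes. The members' median log2 change was -0.33, against 0.0001 over all tested genes. By limma-voom on whole reads recovered from the deposited values, Egr1, Egr4 and Nr4a3 were called lower, 3 of 7 members against 2.13% of all genes. Nr4a1 was called higher, 1 of 7 against 1.92% of all genes, with 4.05% of all genes called in either direction. Egr1 and Egr4 were the 2 members with a q-value under 0.05 in the authors' deposited table, both lower (3.39% of its genes), and none of the 7 was higher there (3.02%).

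**Figure D1:**
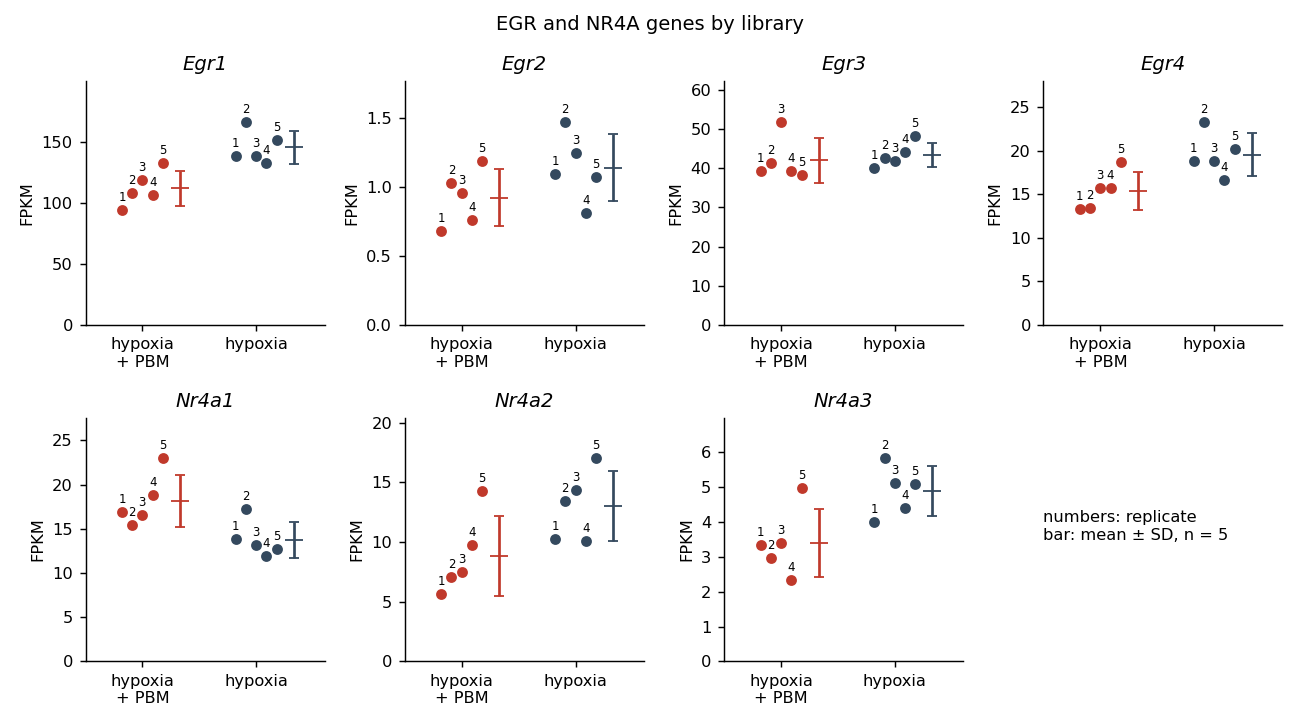
FPKM of each EGR and NR4A gene in each library (points, numbered by replicate), with the mean and SD of each group beside them (n = 5). Egr1 shows a mean of 112 FPKM in hypoxia + PBM and 145 FPKM in hypoxia, and Nr4a1 one of 18.1 FPKM in hypoxia + PBM and 13.8 FPKM in hypoxia.

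The members spanned a wide range of levels. Over all 10 libraries Egr1 was the most abundant with a mean of 129 FPKM, followed by Egr3 with 42.7 FPKM, Egr4 with 17.5 FPKM and Nr4a1 with 15.9 FPKM. Nr4a2 followed with 10.9 FPKM, Nr4a3 with 4.14 FPKM and Egr2 with 1.03 FPKM. Egr1 lay above Egr3 and Egr3 above Egr4 with no overlap over the 10 libraries, and so did Nr4a3 above Egr2. The neighbours Egr4 and Nr4a1 were not apart in this order, with Egr4 above Nr4a1 in 5 of 10 libraries. The ranges of Nr4a1 and Nr4a2 overlapped as well (Nr4a1 higher in 8 of 10 libraries), as did those of Nr4a2 and Nr4a3 (Nr4a2 higher in all 10). Recovered reads per library ran from 10449 to 18192 for Egr1 but only from 224 to 476 for Egr2, so Egr2 carries the widest counting error.

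Egr1, known also as Zif268 and tied to long-term potentiation and memory in mice, had 93.8, 108, 119, 107 and 132.2 FPKM in hypoxia + PBM libraries 1 to 5, against 138.5, 167, 138.4, 132.2 and 151 FPKM in hypoxia libraries 1 to 5. The groups met at a single value: hypoxia + PBM replicate 5 and hypoxia replicate 4 were level at 132.2 FPKM, and all other hypoxia + PBM libraries lay below every hypoxia library. The means were 112 ± 14.4 FPKM in hypoxia + PBM and 145 ± 13.7 FPKM in hypoxia (SD, n = 5 each). Its log2 change was -0.38 ± 0.0825 (SE; limma adjusted p = 0.0284), and the hypoxia + PBM mean was 76.9% of the hypoxia mean. Leaving out 1 library at a time kept the call in 4 fits of 10. It was lost without hypoxia + PBM replicate 1 (limma adjusted p = 0.0579), 2 (0.0628) or 4 (0.0601) and without hypoxia replicate 1 (0.0514), 2 (0.0595) or 5 (0.0725), with a log2 change between -0.44 and -0.32 over the 10 fits. In the authors' deposited table Egr1 had a log2 fold change of -0.38 and a q-value of 0.000161.

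Egr4, a family member expressed largely in brain, had 13.26, 13.46, 15.74, 15.70 and 18.68 FPKM in hypoxia + PBM libraries 1 to 5, against 18.8, 23.4, 18.9, 16.6 and 20.2 FPKM in hypoxia libraries 1 to 5. As in Egr1, the libraries that crossed over were hypoxia + PBM replicate 5 and hypoxia replicate 4. Its log2 change of -0.33 ± 0.0936 (SE) was close in size to that of Egr1 and did not pass (limma adjusted p = 0.0778). It was called by limma-voom (adjusted p = 0.0455), without hypoxia + PBM replicate 5 (limma adjusted p = 0.0298) and without hypoxia replicate 4 (0.0399). Of the 10 fits without 1 library, only these 2 passed, and both left out a library that crossed over. In the others the limma adjusted p reached 0.168. The authors' deposited table gives Egr4 a q-value of 0.00963, one of 6.40% of its genes with a q-value under 0.05. The ratio of Egr1 to Egr4 FPKM lay between 6.79 and 8.04 in hypoxia + PBM and between 7.13 and 7.95 in hypoxia, so the levels of this pair kept nearly the same proportion in every library.

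Egr3, needed for muscle spindles in mice, had 39.29, 41.4, 51.9, 39.25 and 38.2 FPKM in hypoxia + PBM libraries 1 to 5, against 39.99, 42.6, 41.9, 44.3 and 48.4 FPKM in hypoxia libraries 1 to 5. The groups overlapped, and hypoxia + PBM replicate 3 was the highest of all 10 libraries. The log2 change was -0.053, with a 95% interval from -0.22 to 0.11 (limma adjusted p = 0.75). Without hypoxia + PBM replicate 3 it was -0.13, and it still did not pass (limma adjusted p = 0.215), and without hypoxia replicate 5 it was -0.015 (0.942). The Egr1 to Egr3 ratio was 2.69 ± 0.464 in hypoxia + PBM and 3.36 ± 0.356 in hypoxia (SD, n = 5 each), with overlap between the groups.

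Egr2, best known as the regulator of myelination in Schwann cells, was near the lower end of the scale. It had 0.680, 1.03, 0.956, 0.760 and 1.19 FPKM in hypoxia + PBM libraries 1 to 5, against 1.09, 1.47, 1.25, 0.813 and 1.07 FPKM in hypoxia libraries 1 to 5. The groups overlapped broadly. The log2 change was -0.15 with a pseudocount of 1 (limma adjusted p = 0.359), -0.28 with a pseudocount of 0.1 (0.368) and -0.32 by limma-voom (0.275), since adding 1 shrinks the change of a gene at this level. Without 1 library at a time, the change with a pseudocount of 1 lay between -0.21 (without hypoxia replicate 4) and -0.099 (without hypoxia replicate 2) and never passed.

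Summed over the family, EGR transcripts came to 170 ± 18.2 FPKM in hypoxia + PBM and 209.6 ± 17.2 FPKM in hypoxia (SD, n = 5 each). The groups lay only just apart in this sum, with at most 190.3 FPKM in hypoxia + PBM and at least 193.9 FPKM in hypoxia. Of single genes tested, 5.53% separated the groups, and no EGR gene did. The sum carries no test. Egr1 made up 63.3% to 69.5% of it in hypoxia + PBM and 68.2% to 71.2% in hypoxia.

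Nr4a1, the receptor also called Nur77, which is induced in neurons, T cells and vessel walls alike, had 16.9, 15.4, 16.6, 18.9 and 23.0 FPKM in hypoxia + PBM libraries 1 to 5, against 13.8, 17.2, 13.2, 11.9 and 12.7 FPKM in hypoxia libraries 1 to 5. All hypoxia + PBM libraries lay above 4 of the 5 hypoxia libraries, and hypoxia replicate 2 reached into their range. The means were 18.1 ± 2.98 FPKM in hypoxia + PBM and 13.8 ± 2.05 FPKM in hypoxia (SD, n = 5 each). Nr4a1 had a log2 difference of 0.37 ± 0.104 (SE), with a 95% interval from 0.15 to 0.60, and did not pass (limma adjusted p = 0.0738). It was called by limma-voom (adjusted p = 0.0373) and without hypoxia replicate 2 (log2 change 0.45, limma adjusted p = 0.0329). Of the 10 fits without 1 library, only this 1 passed, and it left out the library that reached into the other range. In the others the limma adjusted p reached 0.142. The authors' deposited table gives Nr4a1 a log2 fold change of 0.4 and a q-value of 0.0585. Of 8 endothelial markers 3 were called higher in hypoxia + PBM (Cldn5, Ly6c1 and Tek, chosen after their values were seen), where 1.15% of all tested genes were. All 8 had a positive change, and their FPKM summed to 54 to 63.8 in hypoxia + PBM and 42.7 to 52.1 in hypoxia. The part of these cells in the Nr4a1 level was not tested.

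Nr4a2, or Nurr1, which maintains midbrain dopamine neurons and also marks claustrum and deep cortical layers, had 5.61, 7.08, 7.47, 9.75 and 14.2 FPKM in hypoxia + PBM libraries 1 to 5, against 10.2, 13.4, 14.3, 10.1 and 17.0 FPKM in hypoxia libraries 1 to 5. Of the hypoxia + PBM libraries, 4 lay below every hypoxia library, and replicate 5 lay among them. Its log2 change of -0.55 ± 0.195 (SE) was the largest of the 7 members in size and had the largest error, and it did not pass (limma adjusted p = 0.145). Without hypoxia + PBM replicate 5 the change was -0.72 and passed (limma adjusted p = 0.0318). Of the 10 fits without 1 library, only this 1 passed, and it left out the library that lay among the other group. In the others the limma adjusted p reached 0.279. All 9 tested markers of claustrum and layer 6b had a negative change as well, none was called by limma-trend (3 had an unadjusted p under 0.05), and their median log2 change was -0.21. Summed, these markers were at 71.6 to 97.5 FPKM in hypoxia + PBM and 82.5 to 111 FPKM in hypoxia, and none of them was at 0. Their part in the Nr4a2 level was not tested.

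Nr4a3, or NOR-1, had 3.35, 2.96, 3.41, 2.32 and 4.97 FPKM in hypoxia + PBM libraries 1 to 5, against 4.00, 5.83, 5.11, 4.396 and 5.10 FPKM in hypoxia libraries 1 to 5. Hypoxia + PBM replicate 5 again lay among the hypoxia libraries, and the other 4 lay below them all. A log2 change of -0.44 ± 0.129 (SE) did not pass (limma adjusted p = 0.0892). It passed by limma-voom (adjusted p = 0.0429) and without hypoxia + PBM replicate 5 (log2 change -0.55, limma adjusted p = 0.0203). Of the 10 fits without 1 library, only this 1 passed, and it left out the library that lay among the other group. In the others the limma adjusted p reached 0.173.

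The NR4A family summed to 30.4 ± 6.95 FPKM in hypoxia + PBM and 31.6 ± 4.3 FPKM in hypoxia (SD, n = 5 each), with overlap, while its make-up separated the groups. Nr4a1 supplied 65.3%, 60.5%, 60.4%, 61% and 54.5% of the family's FPKM in hypoxia + PBM libraries 1 to 5, against 49.3%, 47.2%, 40.4%, 45.1% and 36.4% in hypoxia libraries 1 to 5. The groups did not overlap in this share. Nr4a2 supplied 21.7% to 33.8% in hypoxia + PBM and 36.4% to 48.9% in hypoxia, and Nr4a3 supplied 7.51% to 13% in hypoxia + PBM and 14.3% to 16.7% in hypoxia. The Egr1 to Nr4a1 ratio was set apart as well, at 5.56, 7.04, 7.15, 5.65 and 5.76 in hypoxia + PBM libraries 1 to 5, against 10, 9.69, 10.5, 11.1 and 12 in hypoxia libraries 1 to 5. Of the 21 ratios between 2 members, 5 separated the groups without overlap, where 6.34% of all ratios between 2 genes with a mean of at least 1 FPKM did. All 5 were ratios to Nr4a1, out of 6 such ratios, and Egr3 to Nr4a1 was the exception. As they share Nr4a1, they are not 5 separate results and cannot be read against that percentage. For single genes, 5.53% of those tested separated the groups, and none of the 7 members did. These ratios and shares were looked at after the levels were seen and carry no test.

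**Figure D2:**
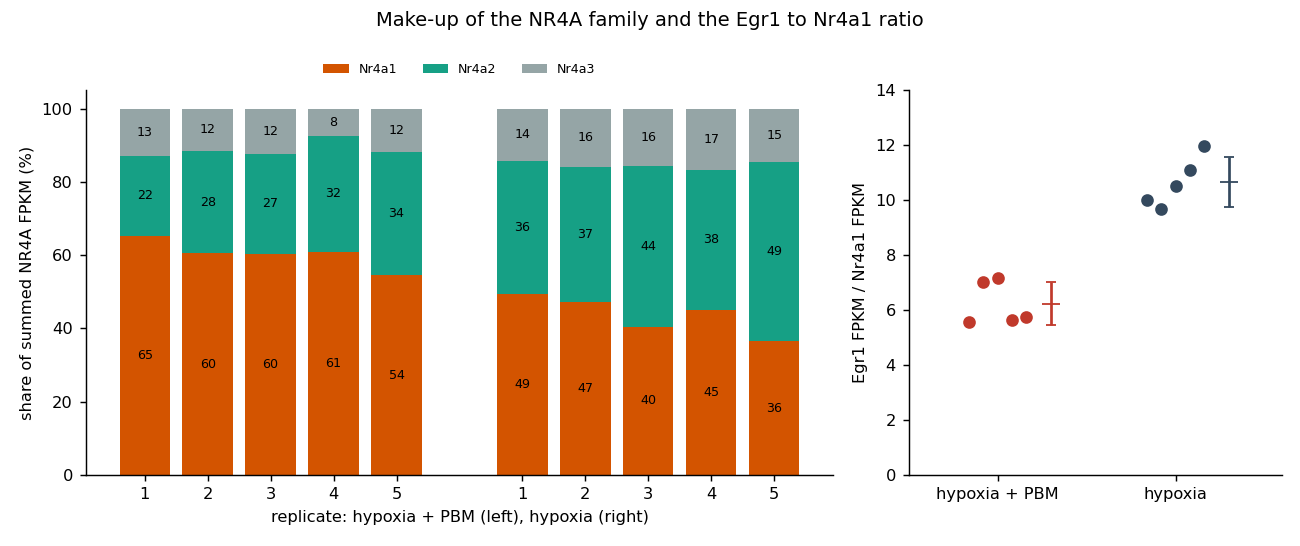
Left, the share of summed NR4A FPKM taken by Nr4a1, Nr4a2 and Nr4a3 in each library (percent, hypoxia + PBM on the left, hypoxia on the right). Right, the Egr1 to Nr4a1 FPKM ratio per library with the mean and SD of each group (n = 5). The ratio averages 6.23 in hypoxia + PBM and 10.7 in hypoxia.

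The libraries differed from each other in most members at once. Within hypoxia + PBM, replicate 5 was highest in 6 of the 7 members, all but Egr3, in which it was lowest, and replicate 1 was lowest in 4 members. Within hypoxia, replicate 2 was highest in 5 members and replicate 4 was lowest in 5. Nr4a1 was among the members highest in hypoxia + PBM replicate 5 and in hypoxia replicate 2 and lowest in hypoxia replicate 4, although its group means lay the opposite way. Leaving out hypoxia + PBM replicate 5 brought the number of members called lower to 4 (Egr1, Egr4, Nr4a2 and Nr4a3). That fit called 398 of 14344 genes in either direction. As replicate 5 was the highest in these 4 members, leaving it out lowers their group mean. Leaving out hypoxia replicate 4 brought the number to 2 (Egr1 and Egr4), in a fit that called 538 of 14350 genes. The number of members called lower was 0 in each of the 6 fits in which Egr1 lost its call.

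**Figure D3:**
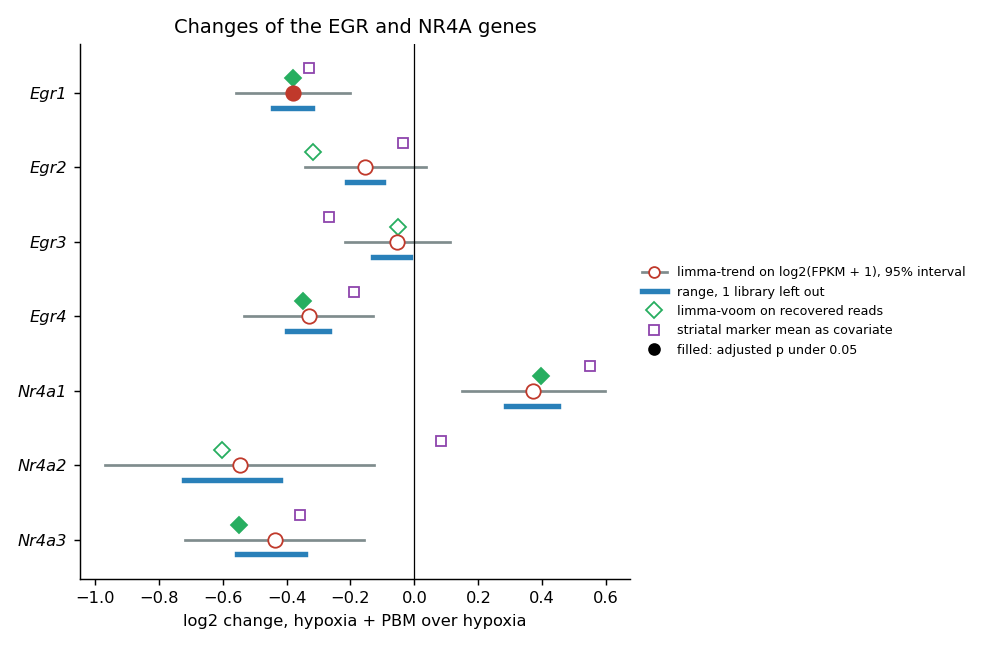
Log2 change of each member, hypoxia + PBM over hypoxia, by limma-trend with its 95% interval (circles and grey lines), by limma-voom (diamonds) and with the striatal marker mean as a covariate (squares). Blue bars span the 10 fits without 1 library. Nr4a1 is the member to the right of 0 by limma-trend, at 0.37, and Nr4a2 crosses 0 with the covariate.

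The 250 bases before the start sites of Nr4a1, Nr4a2, Nr4a3 and Egr4 are shown here. Sequences are from RefSeq (build GRCm38.p6, whereas the submitters' processing notes name GRCm39 for the deposited values). Capitals mark the core of the cAMP response element, which CREB proteins bind, as TGACG or, on the other strand, CGTCA. All motifs were searched on both strands.
Nr4a1 promoter, chr15:101266596-101266845, plus strand: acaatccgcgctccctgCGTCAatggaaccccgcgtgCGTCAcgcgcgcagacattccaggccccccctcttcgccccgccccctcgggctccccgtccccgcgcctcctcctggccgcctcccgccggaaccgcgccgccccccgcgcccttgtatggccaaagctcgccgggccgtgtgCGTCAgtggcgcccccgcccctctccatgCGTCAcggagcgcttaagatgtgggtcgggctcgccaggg
Nr4a2 promoter, chr2:57124004-57124253, minus strand: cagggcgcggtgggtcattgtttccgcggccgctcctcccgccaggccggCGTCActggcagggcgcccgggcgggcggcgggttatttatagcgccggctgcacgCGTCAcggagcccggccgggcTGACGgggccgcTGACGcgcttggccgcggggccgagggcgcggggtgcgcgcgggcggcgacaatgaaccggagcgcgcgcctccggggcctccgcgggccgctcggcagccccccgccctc
Nr4a3 promoter, chr4:48045055-48045304, plus strand: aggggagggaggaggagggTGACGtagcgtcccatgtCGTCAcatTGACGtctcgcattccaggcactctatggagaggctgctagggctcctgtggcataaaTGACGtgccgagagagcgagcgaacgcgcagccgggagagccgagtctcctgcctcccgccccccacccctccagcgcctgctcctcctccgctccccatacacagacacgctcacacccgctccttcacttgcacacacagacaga
Egr4 promoter, chr6:85513590-85513839, minus strand: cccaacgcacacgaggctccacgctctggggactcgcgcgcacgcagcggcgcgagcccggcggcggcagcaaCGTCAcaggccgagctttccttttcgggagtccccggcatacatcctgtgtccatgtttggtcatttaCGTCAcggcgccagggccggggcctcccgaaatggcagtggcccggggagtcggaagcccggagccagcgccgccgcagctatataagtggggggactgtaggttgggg
The windows of Nr4a1, Nr4a2 and Nr4a3 hold 4 of these cores each and that of Egr4 holds 2. A core was found in 17.8% of all 32851 promoter windows of this length. The full palindrome TGACGTCA, present in 1.55% of all windows, is in none of these 4. The EGR site GCGNGGGCG, found in 4.7% of all windows, occurs once in the Nr4a1 window and once in the Nr4a2 window and does not overlap a core there. The NBRE, the element named after NGFI-B (Nr4a1) that NR4A proteins bind, AAAGGTCA (1.34% of all windows), is in none of the 4. For Egr2, 4 of 5 listed start sites have a CArG box, the SRF site, within the same distance (1.47% of all windows). These windows overlap in part and the same box is counted in more than 1 of them, so they do not hold 4 separate boxes. These are matches of letters and not measured binding, and their part in the levels or group means was not tested.

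The genes that work directly with EGR and NR4A proteins were looked at next, as lists. Nab2, the co-repressor that EGR proteins induce and that then restrains them, was lower in hypoxia + PBM. It had 11.97, 12.9, 13.7, 12.1 and 12.6 FPKM in hypoxia + PBM libraries 1 to 5, against 15.4, 17.8, 15.2, 14.4 and 15.9 FPKM in hypoxia libraries 1 to 5. The groups did not overlap, as in 5.53% of all tested genes. The log2 change was -0.29 ± 0.0543 (SE; limma adjusted p = 0.0151), and the call was kept in all 10 fits without 1 library. Nab1, the other co-repressor, was at 5.48 ± 0.297 FPKM in hypoxia + PBM and 5.79 ± 0.378 FPKM in hypoxia (SD, n = 5 each) and did not pass (limma adjusted p = 0.507). Rxrg, the retinoid X receptor gamma gene, which striatal neurons express strongly, was lower at 3.07 ± 0.848 FPKM in hypoxia + PBM and 8.57 ± 2.78 FPKM in hypoxia (SD, n = 5 each; log2 change -1.21, limma adjusted p = 0.0109), in the same libraries in which the striatal markers were lower. In all, 2 of these 5 partners were called lower (Nab2 and Rxrg), where 1.70% of all tested genes were. None was called higher, and none had a positive change. A list of 5 genes is too short to read against that share.

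The upstream factors and kinases were described next, in lists so short that a count of 0 lies close to the 2.85% of all tested genes that were called. None of the 6 SRF and ternary complex factor genes, the 8 CREB genes with their coactivators or the 7 tested MEF2 and class IIa HDAC genes passed limma-trend or limma-voom, and 2, 4 and 3 of them had an unadjusted p under 0.05, where 19.6% of all tested genes did. Of the 12 ERK, RSK, MSK and CaMK4 kinase genes none passed limma-trend, 4 had an unadjusted p under 0.05, and 1 was lower by limma-voom, Rps6ka4. The medians of these 4 lists lay between -0.036 and 0.05 on the log2 scale. Among the members with the smallest p, Rps6ka4, the kinase MSK2 that phosphorylates CREB and histone H3, had a log2 change of -0.16 (limma adjusted p = 0.0552). Crtc1, a CREB coactivator that moves to the nucleus on activity, had one of 0.13 (limma adjusted p = 0.0949). Srf had one of -0.13 and its coactivator Mrtfa one of -0.14, Creb1 one of -0.11 and Crem one of -0.17. Mef2c was at 0.16, Mef2d at -0.079 and Hdac5 at -0.093, Camk4 at -0.15 and Camkk2 at 0.11, and Elk3 at -0.027 (log2 changes, limma adjusted p between 0.133 and 0.802).

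Of 10 reported EGR targets 1 was called lower, Nab2 again, where 1.70% of all tested genes were, and none higher. A single call among 10 genes is too few to read against that share. The targets had a median log2 change of 0.0055. Arc, the activity-induced synaptic protein, was at 73.8 ± 16.3 FPKM in hypoxia + PBM and 53.4 ± 9.28 FPKM in hypoxia (SD, n = 5 each) and did not pass (log2 change 0.45, limma adjusted p = 0.109). Its direction was that of Nr4a1 and not that of Egr1. Gabra4, a GABA-A receptor subunit, was at -0.058 (log2 change, limma adjusted p = 0.478). Of 7 tested NR4A targets none passed limma-trend or limma-voom, and 1 had an unadjusted p under 0.05. Vip, the interneuron peptide, was at 0.18, Ret, a growth factor receptor, at 0.07 and Spp1, osteopontin, at -0.21 (log2 changes, limma adjusted p between 0.191 and 0.402).

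Other activity-induced genes had changes of either sign. Of 10 tested AP-1 factors, the FOS and JUN partners, none was called by limma-trend. An unadjusted p under 0.05 was found for 3, where 19.6% of all tested genes had one. By limma-voom 1, Fosb, was lower (2.13% of all genes). Fosb was at 2.74 ± 0.407 FPKM in hypoxia + PBM and 3.73 ± 0.493 FPKM in hypoxia (SD, n = 5 each), just outside the threshold (limma adjusted p = 0.0509), and Fos itself, named after its values were seen, was at 13.2 ± 4.35 FPKM in hypoxia + PBM and 13.3 ± 3.03 FPKM in hypoxia (SD, n = 5 each). Batf3 was at -0.34 and Jund at -0.094 (log2 changes, limma adjusted p = 0.138 and 0.195). Of 13 synaptic effector genes none was called by limma-trend, and 7 had an unadjusted p under 0.05, where 19.6% of all tested genes did. By limma-voom 1, the salt-inducible kinase gene Sik1, was lower (2.13% of all genes). By limma-trend Sik1 was at -0.34, the prostaglandin synthase Ptgs2 at 0.21 and the kinase Plk2 at -0.12 (log2 changes, limma adjusted p between 0.051 and 0.0917).

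Of 17 MAPK feedback and IER genes, 2 were called lower, where 1.70% of all tested genes were, and none higher. An unadjusted p under 0.05 was found for 7, where 19.6% of all tested genes had one. Ier3, a stress-induced regulator of ERK signalling and survival, was at 6.07 ± 0.608 FPKM in hypoxia + PBM and 8.82 ± 0.626 FPKM in hypoxia (SD, n = 5 each; log2 change -0.48, limma adjusted p = 0.00436). Ier5 was at 31.1 ± 1.39 FPKM in hypoxia + PBM and 38 ± 1.81 FPKM in hypoxia (SD, n = 5 each; log2 change -0.28, limma adjusted p = 0.00541). Both separated the groups, as did 5.53% of all tested genes, and were called in all 10 fits without 1 library. Btg2, an anti-proliferative immediate early gene, lay on the side of Nr4a1 at 6.44 ± 1.37 FPKM in hypoxia + PBM and 4.24 ± 1.04 FPKM in hypoxia (SD, n = 5 each) and did not pass (limma adjusted p = 0.0826). The medians of the AP-1, effector and MAPK lists were -0.081, -0.0031 and -0.022 on the log2 scale, against -0.33 for the EGR and NR4A members. The difference between these lists was not tested.

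**Figure D4:**
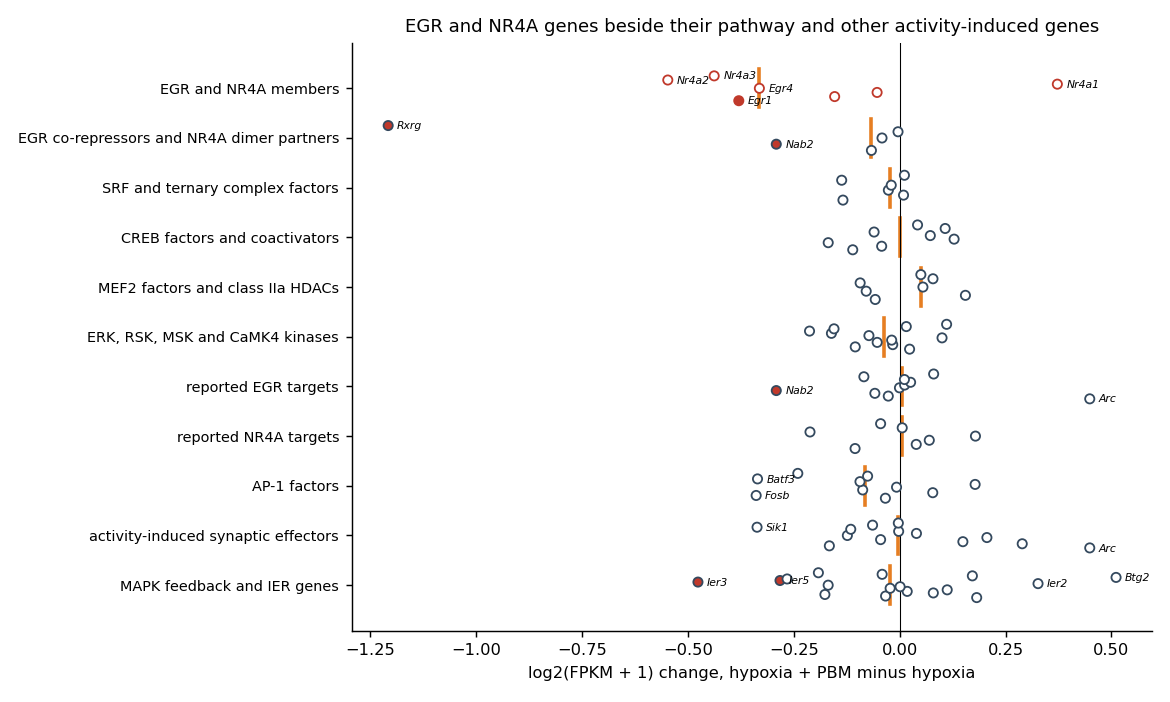
Log2(FPKM + 1) change, hypoxia + PBM minus hypoxia, of each gene (points) in the EGR and NR4A families and in the lists beside them. Filled points passed at an adjusted p under 0.05 and orange bars are list medians, such as -0.33 for the members and -0.081 for the AP-1 factors.

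The genes whose profile over the 10 libraries was closest to that of Egr1 and Egr4 included another immediate early gene. The profile was log2(FPKM + 1) centred on its own mean, group difference included, and 11386 other genes with a mean of at least 1 FPKM were compared. For Egr1 the closest was Fosb, with a root-mean-square difference of 0.0612 log2 units where Egr1 itself varied by 0.237, followed by Tmem165 with 0.0873 and Mrps6 with 0.0898. For Egr4 it was Fosb again with 0.0681, then Sik1 with 0.0926 and Mrps6 with 0.101. Tmem165, a Golgi manganese transporter, was lower at 14.8 ± 1.4 FPKM in hypoxia + PBM and 19 ± 1.18 FPKM in hypoxia (SD, n = 5 each; limma adjusted p = 0.0146). Mrps6, a mitochondrial ribosomal protein, was lower too, with a log2 change of -0.33 (limma adjusted p = 0.0136). For Egr3 the closest genes were Ahdc1 with 0.0705, Scrt2 with 0.0734 and Rhot2 with 0.075, where Egr3 varied by 0.132.

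The striatal marker mean, which separated the groups, stood at 3.42, 3.46, 2.95, 3.6 and 3.69 log2 units in hypoxia + PBM libraries 1 to 5, against 4.37, 4.12, 4.49, 3.79 and 4.55 in hypoxia libraries 1 to 5. Within its group, hypoxia + PBM replicate 5 had the highest mean and the highest Egr1 and Nr4a2. Hypoxia replicate 4 had the lowest mean, Egr1 and Nr4a2 of its group, and hypoxia replicate 5 the highest mean and Nr4a2. Hypoxia + PBM replicate 3, with the lowest mean, had 119 FPKM of Egr1, above 3 of the other 4 libraries of its group. Its Nr4a2 was the median of that group at 7.47 FPKM. Hypoxia replicate 2, with the lowest mean but one, had the highest Egr1 and Egr4. How member levels relate to the striatal mean within the groups was not tested. With this mean as a covariate no gene was called in either direction by limma-trend, while 836 had an unadjusted p under 0.05. Standard errors of the genes named here widened in this fit, except that of Rxrg. The log2 change was then -0.34 ± 0.104 for Nab2, -0.60 ± 0.115 for Ier3 and -0.37 ± 0.0734 for Ier5, no smaller in size than without the covariate, and -0.13 ± 0.143 for Rxrg (SE). Among the members it was -0.33 ± 0.158 for Egr1, -0.19 ± 0.174 for Egr4, -0.27 ± 0.126 for Egr3 and -0.035 ± 0.163 for Egr2 (SE). It was 0.55 ± 0.191 for Nr4a1, -0.36 ± 0.247 for Nr4a3 and 0.085 ± 0.308 for Nr4a2, whose sign turned. As the covariate itself separated the groups, its part and that of the light treatment cannot be told apart.

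**Figure D5:**
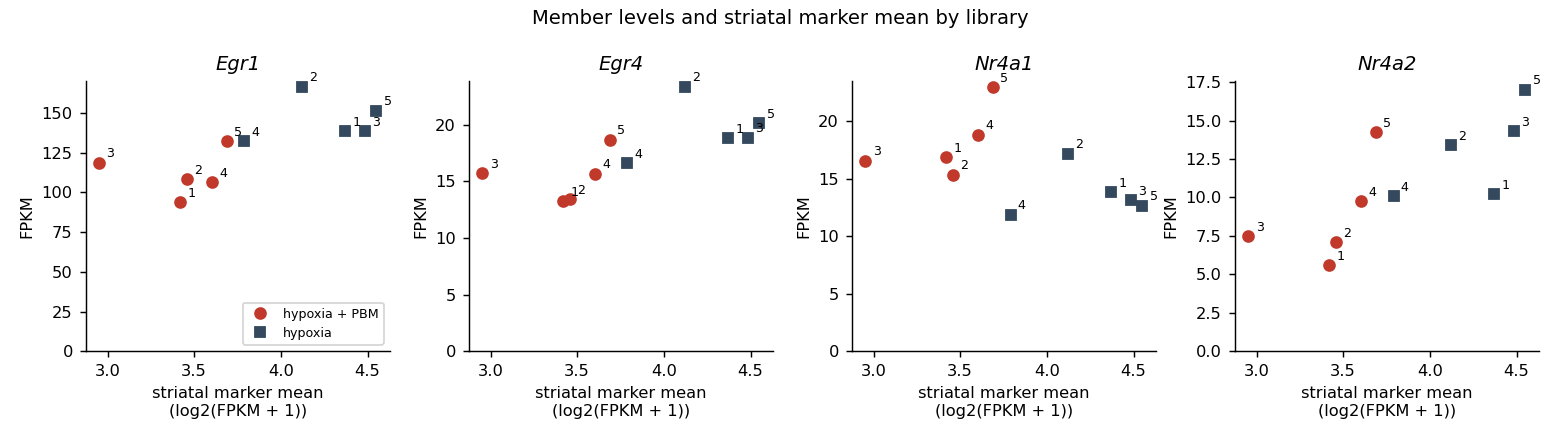
FPKM of Egr1, Egr4, Nr4a1 and Nr4a2 (vertical axes) against the mean log2(FPKM + 1) of 17 striatal markers (horizontal axes) in each library, numbered by replicate. The hypoxia + PBM libraries (circles) lie between 2.95 and 3.69 on the horizontal axis and the hypoxia libraries (squares) between 3.79 and 4.55.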

How the data were processed

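RNA of prefrontal cortex was sequenced in 10 libraries, 5 per group, with groups and replicate numbers taken from the labels. The submitters' processing notes name fastp (version 1.0), HISAT2, HTSeq and the build GRCm39. For settings, annotation and strand, the sources used here give nothing. The deposited FPKM values were computed by the authors per library, per the file headers. Per the file headers, the authors also deposited group means as a signal (reads divided by DESeq2 size factors), a fold change and its log2, and a p-value and q-value.

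Whole reads were recovered by solving FPKM against the deposited group means. All values (100%) came out whole within 0.01 reads. They served depth and limma-voom (TMM written out in R). The test was limma-trend (limma 3.58.1, R 4.3.3) on log2(FPKM + 1), two-sided, with the group as the only term. Scripts were tested on simulated data. The share of genes called over all tested genes was 2.85%.

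Members and lists were chosen with earlier results of these data known. Named genes were all members, the 3 smallest p and any called gene of each list, and the 3 closest profiles of the 3 most abundant members. Every pair of libraries within a group differed by more than sampling noise (chi-square per gene from 5.81 to 13.3). Promoter sequences come from RefSeq. Windows of 5 members were searched, and none of Egr1 or Egr3 was used.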

Additional observations from a re-analysis of the deposited data

Results flagged for a closer look

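Single libraries stood apart from their group in 3 of 76 sets of 5 libraries looked at (members, named list genes and marker means), by the size of the gap to the nearest library relative to the group's range. Chance alone flags about 5% of such sets. Egr3 was at 51.9 FPKM in hypoxia + PBM replicate 3, against 38.2 to 41.4 FPKM in the other libraries of that group. Sik1 was at 3.46 FPKM in hypoxia replicate 2, against 2.33 to 2.61 FPKM in the others, and Ptgs2 was at 3.10 FPKM in hypoxia replicate 5, against 2.74 to 2.79 FPKM in the others.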

How the results depend on the processing

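Of the alternatives, limma-voom on recovered reads called 277 genes higher and 307 lower (166 and 245 by limma-trend), with 1 member higher and 3 lower, and gave log2 changes of -0.35 for Egr4, 0.40 for Nr4a1 and -0.55 for Nr4a3, all past the threshold. With the striatal marker mean as a covariate 0 genes were higher and 0 lower, and the count of members called lower was 0. The log2 change was then -0.33 for Egr1 (limma adjusted p = 0.843) and 0.085 ± 0.308 (SE) for Nr4a2. Gabra4 at 0.070 ± 0.068 and Ret at -5.025e-06 ± 0.0796 (SE) also changed sign. None of these changes of sign stood clear of 0, given the errors. Leaving out 1 library gave 78 to 203 genes higher and 122 to 335 lower, 0 to 1 members higher and 0 to 4 lower. The ranges of the log2 change were -0.44 to -0.32 for Egr1, -0.21 to -0.099 for Egr2, -0.13 to -0.015 for Egr3, -0.40 to -0.27 for Egr4, 0.29 to 0.45 for Nr4a1, -0.72 to -0.42 for Nr4a2 and -0.55 to -0.34 for Nr4a3. The cause of these changes was not tested. A pseudocount of 0.1, no filter, a filter at 1 FPKM and upper-quartile scaling left every member on its side of the threshold and in its direction.

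Whether the replicate numbers pair the libraries is not known. The correlation of deviations from the group means between same-numbered libraries was 0.205 for number 2 and between -0.0721 and -0.0361 for the others. Only number 2 was matched best by its own number, and these correlations cannot exclude pairing. With the replicate block 105 genes were called higher and 151 lower, and Egr1 stayed the member called (limma adjusted p = 0.0344). Nr4a2 came nearer to the threshold (limma adjusted p = 0.0576, SE 0.118, against 0.145 and 0.195 without the block). Nr4a1 moved away from it (0.141, SE 0.115, against 0.0738 and 0.104). Of the other genes named, Arc (limma adjusted p = 0.0337), Btg2 (0.0295) and Fosb (0.0498) passed with the block and not without it. Depth limits Egr2 most.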
